A study of Mus musculus with 31 samples.

Results

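The cholesterol genes described here are Hmgcs1, Sqle, Idi1, Fdft1, Fdps, Dhcr7 and Insig1, 7 sterol-regulated genes taken by name from the 20436 gene symbols of each count table. They were measured in cortex of mice aged 29 to 34 days of 4 genotypes: wild type (WT), Fmr1-deficient (FXS, the genetic lesion of fragile X syndrome), Rps6kb1-deficient (S6K1, lacking the ribosomal S6 kinase 1 gene) and deficient in both genes (DKO). Polyadenylated mRNA was sequenced in 4 libraries of each genotype. Ribosome footprints, the stretches of mRNA protected by translating ribosomes, were sequenced in 4 WT, 5 FXS, 3 S6K1 and 3 DKO libraries. The grouped genes were put together as cholesterol synthesis and uptake genes, but 6 of the 7 encode synthesis enzymes and Insig1 encodes a sterol sensor. All 7 passed the filter on low counts in both assays.

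Cholesterol in the brain is made locally, because lipoproteins of the blood do not cross the blood-brain barrier. In the postnatal brain, oligodendrocytes take up much of this synthesis for myelin, and astrocytes and neurons also make sterols. When membranes of the endoplasmic reticulum run low in sterol, the escort protein SCAP carries the transcription factor precursor SREBP-2, encoded by Srebf2, to the Golgi, where proteases release its active part. Active SREBP-2 raises transcription of synthesis enzyme genes and of Insig1. The INSIG1 protein retains SCAP in the endoplasmic reticulum when sterol is plentiful, which closes a negative feedback loop. S6K1 acts below the mTORC1 kinase, which is known to promote SREBP activity, and FMRP, the product of Fmr1, binds mRNAs and represses translation of many of them.

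The members fall along the pathway as follows. Hmgcs1 (chr13:119690351-119708260) encodes the cytosolic synthase that makes HMG-CoA, an early intermediate of the pathway. Idi1 (chr13:8885606-8892396) encodes the isomerase that supplies the activated isoprene unit. Fdps (chr3:89093588-89101967) encodes the synthase of farnesyl pyrophosphate. Fdft1 (chr14:63145150-63181687) encodes squalene synthase, the first enzyme committed to sterols, and Sqle (chr15:59315092-59331193) encodes squalene epoxidase. Dhcr7 (chr7:143823167-143848410) encodes the reductase of the last step to cholesterol, and Insig1 (chr5:28071412-28078662) encodes the retention factor for SCAP. All are protein-coding genes, and these positions are those of RefSeq on GRCm38.p6.

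SREBP proteins bind sterol regulatory elements, commonly beside CCAAT boxes that bind NF-Y. The RefSeq promoter table held entries for 4 of the 7 genes: Hmgcs1, Idi1, Dhcr7 and Insig1. Sqle, Fdft1 and Fdps had none. Both strands of the 250 bases before each start were searched for the letters TCACNCCAC, a common form of the element, and for CCAAT. The mRNAs of all 4 genes varied with those of other members between libraries (values are given further on). The windows of Dhcr7 are described below but not shown. The promoters of Hmgcs1, Idi1 and Insig1 are shown. All 3 lie on the plus strand of GRCm38.p6, are written 5′ to 3′, and have matches to either motif in capitals, a CCAAT box on the other strand reading ATTGG.
Hmgcs1, chr13:119690101-119690350: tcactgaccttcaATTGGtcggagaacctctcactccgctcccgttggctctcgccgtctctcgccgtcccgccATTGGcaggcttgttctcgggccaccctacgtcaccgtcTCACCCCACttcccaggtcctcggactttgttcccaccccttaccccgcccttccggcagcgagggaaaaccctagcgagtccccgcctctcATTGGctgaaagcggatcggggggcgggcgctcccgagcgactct
Idi1, chr13:8885356-8885605: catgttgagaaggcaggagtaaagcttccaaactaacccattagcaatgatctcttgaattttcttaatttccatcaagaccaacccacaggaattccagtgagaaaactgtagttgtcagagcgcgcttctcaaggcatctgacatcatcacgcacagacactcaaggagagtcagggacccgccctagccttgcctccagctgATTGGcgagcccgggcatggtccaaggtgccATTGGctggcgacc
Insig1, chr5:28071162-28071411: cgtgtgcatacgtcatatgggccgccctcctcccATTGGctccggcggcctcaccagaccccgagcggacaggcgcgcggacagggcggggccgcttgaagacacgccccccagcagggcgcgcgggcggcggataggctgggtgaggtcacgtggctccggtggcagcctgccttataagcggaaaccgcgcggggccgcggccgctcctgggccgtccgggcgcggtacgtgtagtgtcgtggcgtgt

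The Hmgcs1 promoter held 1 match to TCACNCCAC, read as TCACCCCAC, from 137 to 129 bases before the start. The same letters occurred in 1.05% of the 32851 promoter windows of this length. Hmgcs1 also held 3 CCAAT boxes, which 2.79% of all windows did. The Idi1 window held 2 CCAAT boxes, which begin 45 and 14 bases before the start, and the Insig1 window held 1. At least 1 CCAAT box stood in 33.8% of all windows. Of the 3 Dhcr7 start sites in the table, 1 had 2 CCAAT boxes and none of the 3 had the longer motif. These matches describe letters in the windows and were not tested for binding.

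Total counts ran from 12134624 to 17267368 per mRNA library and from 16633416 to 34853751 per footprint library, and the smallest count of a member in any library was 306. Levels are given as CPM, read counts normalised to library size after TMM scaling, and are compared between libraries, not between genes. Footprints of Fmr1 fell from 117 ± 15.3 CPM in WT (SD, n = 4) to 7.85 ± 0.628 in FXS (SD, n = 5) and 10.5 ± 2.37 in DKO (SD, n = 3). Footprints of Rps6kb1 fell from 28.9 ± 2.48 CPM in WT to 10.2 ± 2.58 in S6K1 and 11.6 ± 0.352 in DKO, and in neither case did the deficient libraries overlap WT. All 12 neuronal marker genes had counts in every library. The labels give batches, and mRNA batch 5, which holds replicate 1 of each genotype, stood apart: its summed microglial markers were 212 to 279 CPM, against 737 to 882 in the other 12 mRNA libraries. Footprint batch 1 holds only S6K1 replicate 1 and DKO replicate 1. Whether the libraries of a group came from separate animals is not stated, so p-values measure the spread between these samples.

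**Figure D1:**
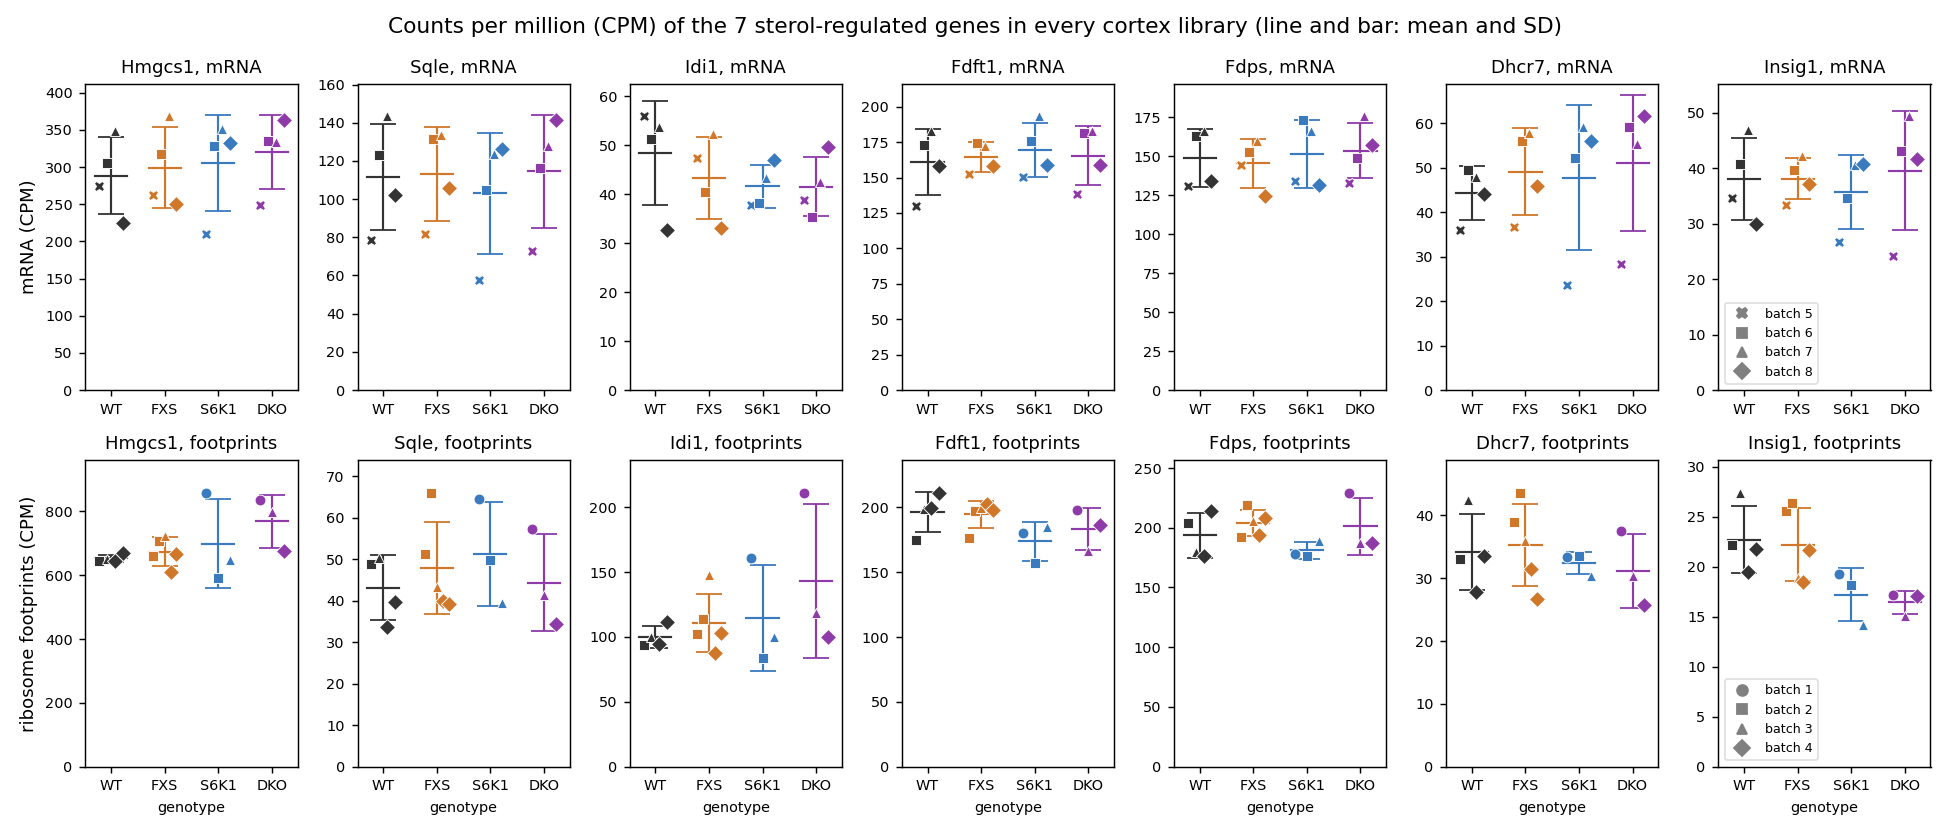
Level of each of the 7 genes (CPM, vertical axis from 0) in every library, by genotype, for mRNA in the top row and footprints in the bottom row; symbols mark batches, the short line is the mean and the bar 1 SD. The mRNA groups overlap for all 7 genes with batch 5 low for most, while the 3 DKO and 3 S6K1 footprint libraries of Insig1 lie below all 4 of WT.

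The mRNA levels of the 7 genes did not separate by genotype. Of the 7 members, 0 were called (edgeR quasi-likelihood test, Benjamini-Hochberg adjusted p below 0.05) in FXS, S6K1 or DKO against WT, where 0.155%, 0.0211% and 5.23% of the 14215 genes tested were called. None was called in DKO against FXS, in DKO against S6K1 or for the interaction of both deficiencies, with 0.0281%, 0.387% and 0% of all genes called, and DESeq2 and limma voom also called 0. At an unadjusted p below 0.05 the count was again 0 of 7 in all 6 comparisons, where 12.7%, 7.37%, 22.3%, 9.81%, 14.8% and 3.5% of all genes passed, in the order named. For each member the mRNA libraries overlapped in all 5 pairs of genotypes. Groups did not overlap for 3.34% of all genes in FXS, 1.6% in S6K1 and 6.15% in DKO against WT, 2.78% in DKO against FXS and 3.03% in DKO against S6K1.

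Hmgcs1 mRNA, at the head of the pathway, was 275, 305, 348 and 225 CPM in WT and 249, 335, 333 and 363 CPM in DKO. The highest DKO library was above all of WT and the lowest was below 3 of them, so the groups overlapped. The log2 difference of DKO from WT was 0.15 ± 0.12 (SE), with a 95% interval from -0.11 to 0.42. Within batch 8 the difference was 0.69, and in the other 3 batches it ran from -0.14 to 0.14.

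Idi1 mRNA had the most negative log2 difference in each genotype: -0.16 ± 0.17 (SE) in FXS, -0.21 ± 0.17 in S6K1 and -0.21 ± 0.17 in DKO. Its WT libraries were 55.9, 51.2, 53.6 and 32.6 CPM, and the lowest of these was below every DKO library, which ran from 35.4 to 49.6. The 3 comparisons share these WT libraries. Fdft1 and Fdps mRNA varied least: their log2 differences from WT lay between -0.03 and 0.08 in the 3 genotypes, with 95% intervals no wider than 0.15 to either side. Sqle, Dhcr7 and Insig1 mRNA differed from WT by -0.14 to 0.16.

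Batch moved these mRNAs further than genotype did. Sqle mRNA was 57.6 to 81.7 CPM in the 4 libraries of batch 5 and 102 to 143 CPM in the other 12, with no overlap. Dhcr7 mRNA was 23.7 to 36.8 CPM in batch 5 and 44.2 to 61.6 elsewhere. Of the variance of log2 level, batch took 85.7% for Fdft1, 82.8% for Sqle, 78.8% for Dhcr7, 71.7% for Fdps, 63.5% for Insig1, 56.3% for Hmgcs1 and 17.5% for Idi1, against a median of 39.3% over all genes. Genotype took 2.68% (Dhcr7) to 11.1% (Idi1), against a median of 16.9%. The microglial markers of batch 5 were low as well, as were its summed myelin markers, 2567 to 2767 CPM against 3518 to 4624 elsewhere. Not all members were low there: Idi1 mRNA had a mean of 44.9 CPM in batch 5 and 40.6 in batch 8. Fdps mRNA had means of 136 CPM in batch 5 and 137 in batch 8. The part of the markers in the batch difference was not tested.

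With batch differences removed, 5 of the 7 mRNAs still varied together over the 16 libraries. Pearson's r with the mean profile of the other 6 members was 0.80 for Hmgcs1, 0.77 for Sqle, 0.74 for Dhcr7, 0.65 for Insig1 and 0.63 for Idi1. It was 0.38 for Fdps and -0.16 for Fdft1. The highest single pair was Hmgcs1 with Dhcr7, at 0.82. Among the 5 other genes of 14208 most like the mean profile of the members were Cyp51 (r = 0.88), Msmo1 (0.87), Cdc42ep4 (0.85) and Fabp7 (0.84). Cyp51 and Msmo1 encode enzymes of the same pathway that act in removing methyl groups from sterol intermediates. These correlations are descriptions over libraries that share batches and scaling.

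In footprints, Insig1 had the lowest log2 differences from WT of the 7 genes in S6K1 and in DKO, and neither was called. Its footprint level was 22.1, 27.4, 19.5 and 21.8 CPM in WT and 25.6, 26.4, 18.9, 18.5 and 21.7 CPM in FXS. It was 19.2, 18.2 and 14.2 CPM in S6K1 and 17.1, 15.1 and 17.1 CPM in DKO. All S6K1 and all DKO libraries were below all of WT, and all DKO libraries were below all of FXS. Such separation downwards occurred in 6.41% of the 13953 genes tested for S6K1 against WT, in 7.22% for DKO against WT and in 2.1% for DKO against FXS. The log2 difference from WT was -0.52 ± 0.15 (SE) in S6K1, with an adjusted p of 0.319 by edgeR over all genes, and -0.50 ± 0.14 in DKO, with an adjusted p of 0.132. In FXS it was -0.08 ± 0.12.

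Within batches, Insig1 footprints in DKO differed from WT by -0.84 on the log2 scale in batch 3 and by -0.26 in batch 4. In S6K1 the differences were -0.27 in batch 2 and -0.92 in batch 3. WT replicate 2, of batch 3, was the highest library, and without it the fitted difference was -0.29 in DKO and -0.30 in S6K1. Insig1 mRNA did not share the pattern: it was 34.7, 40.7, 46.8 and 29.9 CPM in WT and 24.2, 43.1, 49.3 and 41.7 CPM in DKO, with DKO both above and below WT. In the authors' deposited table of footprints, Insig1 had a log2 fold change of -0.50 in DKO with an adjusted p of 0.0556, and no member was below 0.05 in any of their 6 tables for FXS or DKO against WT.

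None of the 7 genes was called in footprints. The share of all genes called was 0.165% in FXS, 0.00717% in S6K1 and 0.366% in DKO against WT, and 0.0143%, 0.00717% and 0% in DKO against FXS, DKO against S6K1 and the interaction. DESeq2 and limma voom also called 0 of the 7. An unadjusted p below 0.05 was reached by 0, 3, 1, 2, 1 and 0 of the 7 in these 6 comparisons, and by 9.87%, 8.74%, 17.1%, 6.19%, 8.67% and 3.07% of all genes. In S6K1 all 7 log2 differences from WT were below 0, with a median of -0.18 against -0.02 over all genes, and the 3 with an unadjusted p below 0.05, where 4.52% of all genes were lower by that measure, were Fdft1 (-0.18 ± 0.08, SE), Dhcr7 (-0.30 ± 0.13) and Insig1. Without the batch term, Hmgcs1, Sqle and Idi1 were above WT in S6K1 footprints instead, at 0.099, 0.25 and 0.20, as were their unadjusted S6K1 means, at 699, 51.2 and 115 CPM against 652, 43.1 and 100.02 CPM. In DKO 4 of 7 were below 0, and Insig1 was the 1 gene past an unadjusted 0.05, as 9.56% of all genes were downwards. In FXS 5 of 7 were above 0. The other unadjusted values below 0.05 were Fdft1 (-0.17) and Insig1 (-0.41) in DKO against FXS and Idi1 (0.31) in DKO against S6K1, with adjusted p-values of 0.762, 0.762 and 0.532 by edgeR.

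The early enzymes Hmgcs1 and Idi1 had their highest footprints in batch 1. Hmgcs1 was 643, 652, 645 and 670 CPM in WT and 834, 798 and 675 CPM in DKO, so every DKO library was above every WT library, as for 9.07% of all genes. S6K1 replicate 1, of batch 1, reached 857 CPM, while the other S6K1 libraries were at 590 and 649. With batch in the model the DKO difference was 0.09 ± 0.08 (SE) on the log2 scale. Within batches it was 0.29 in batch 3 and 0.04 in batch 4.

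Idi1 footprints were 161 CPM in S6K1 and 211 CPM in DKO in batch 1, and 83.5 to 147 CPM in the other 13 libraries. Batch 1 holds no WT or FXS library, so for these libraries batch and genotype are separated only through the model. Between the batch 1 libraries, DKO was higher than S6K1 by 0.39 on the log2 scale, and by 0.24 in batch 3. Fdps footprints ranged from 176 to 229 CPM and Fdft1 footprints from 157 to 211 CPM over all 15 libraries. For both, each deficient genotype overlapped WT. Fdps in S6K1, at 176 to 189 CPM, lay below FXS, at 192 to 219 CPM. No test was run for this pair, and the share of all genes so separated was not computed, so no difference is read from it. Sqle footprints were 33.7 to 65.9 CPM and Dhcr7 footprints 25.7 to 43.6 CPM, and for both of these genes every pair of genotypes overlapped.

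Genotype took a larger part of the variance in footprints than in mRNA. It was 49.5% for Insig1, 39.1% for Fdft1, 36.7% for Fdps, 25.7% for Dhcr7, 13.04% for Idi1, 11.6% for Hmgcs1 and 7.00% for Sqle, against a median of 12.2% over all genes. Batch took more than genotype for all but Insig1 and Fdps: 76.3% for Sqle, 68.1% for Idi1, 62.2% for Dhcr7, 51.1% for Hmgcs1 and 41.7% for Fdft1. For Insig1 and Fdps batch took 17.5% and 13.1%, and its median over all genes was 45.6%. With batch removed, Fdft1 and Dhcr7 footprints had the highest correlation of any pair (r = 0.84), and Dhcr7 with Insig1 had 0.81. Fdft1, whose mRNA did not follow the others, had r = 0.80 with the mean footprint profile of the other 6. The 5 other genes most like the members in footprints were Pnpla2 (r = 0.93), Ecscr, Mcur1, Sept1 and Adck3 (r = 0.88), none of them in the sterol lists. Msmo1 was the first sterol enzyme, in place 9.

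**Figure D2:**
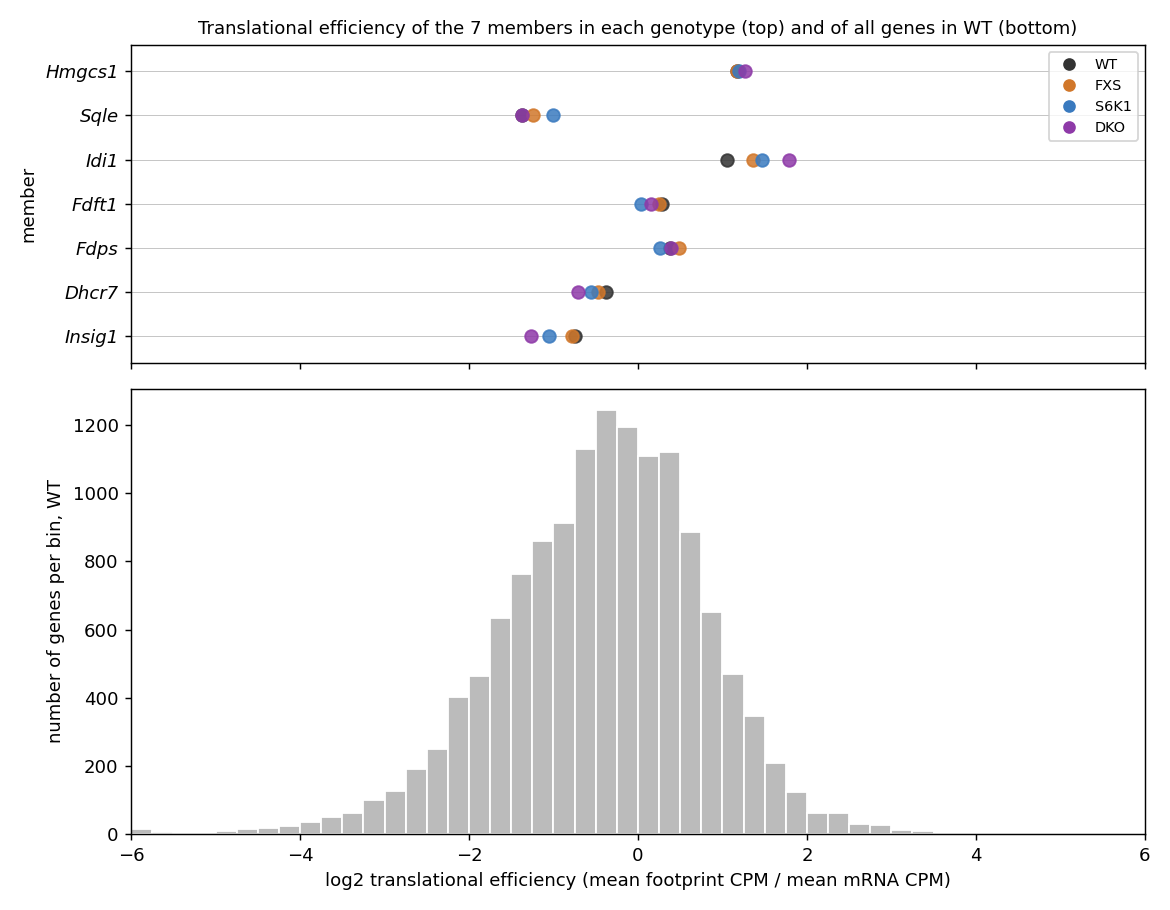
Translational efficiency, the ratio of mean footprint to mean mRNA CPM on a log2 scale (horizontal axis): top, the 7 genes with 1 point per genotype; bottom, the number of genes per bin in WT. Hmgcs1 and Idi1 sit in the upper tail and Sqle in the lower part, and the DKO points of Insig1 and Dhcr7 lie to the left of WT.

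Translational efficiency, the footprint level over the mRNA level, differed more between the members than between genotypes. Both count tables are named by the authors as counts over coding sequences, so a gene's length enters both sides of the ratio. In WT it was 2.26 for Hmgcs1, 2.07 for Idi1, 1.303 for Fdps, 1.22 for Fdft1, 0.771 for Dhcr7, 0.597 for Insig1 and 0.386 for Sqle. The median over 13654 genes was 0.785, and Hmgcs1 stood at percentile 92.5 and Sqle at 20.1. Consecutive enzymes of the squalene step thus differed: the ratio of Fdft1 was at percentile 71.7, well above that of Sqle. In DKO, Hmgcs1 and Sqle had ratios of 2.40 and 0.387. These ratios of group means carry no batch term, unlike the tests that follow.

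Of the 7 members, 0 were called for a difference of translational efficiency. The share of all genes called was 0.0952% in FXS, 0.0293% in S6K1 and 4.85% in DKO against WT, and 0.0146%, 0.00732% and 0% in DKO against FXS, DKO against S6K1 and the interaction, and DESeq2 and limma voom also called 0 members. An unadjusted p below 0.05 was reached by 0, 2, 3, 1, 0 and 0 of the 7 in these 6 comparisons, and by 13.4%, 7.51%, 24.9%, 8.36%, 14.6% and 4.14% of all genes. In DKO 6 of 7 log2 differences were below 0, with a median of -0.18 against -0.02 over all genes, and 3 had an unadjusted p below 0.05, as 14.6% of all genes did downwards, namely Insig1 (-0.53 ± 0.20, SE), Dhcr7 (-0.40 ± 0.19) and Fdft1 (-0.20 ± 0.09). Their adjusted p-values were 0.102, 0.191 and 0.182 by edgeR. Idi1 was the exception, at 0.28 ± 0.22. Without the batch term Hmgcs1, Sqle and Fdps were above 0 as well, at 0.086, 0.0049 and 0.0078.

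Insig1 passed the threshold only when libraries of mRNA batch 5 were left out. Without the 4 libraries of that batch its efficiency in DKO differed from WT by -0.70, with an adjusted p of 0.0489 by edgeR. Without DKO mRNA replicate 1 alone, which is in batch 5, it differed by -0.66, with an adjusted p of 0.0464. Without WT footprint replicate 2 the difference was -0.31. In S6K1 against WT, 2 of 7 had an unadjusted p below 0.05, Fdft1 (-0.26) and Insig1 (-0.43), with adjusted p-values of 0.566 and 0.652 by edgeR, and in FXS 0 did. Insig1 in DKO against FXS had -0.43 and an adjusted p of 0.576.

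The interaction asks whether the deficiency of Fmr1 had another effect in mice lacking Rps6kb1. For the members it ran from -0.08 to 0.16 on the log2 scale in mRNA and from -0.12 to 0.17 in footprints. In efficiency it ran from -0.26 (Sqle) to 0.10 (Dhcr7). The 95% intervals of the footprint values contained 0 for all 7, and ran from -0.22 to 0.23 for Fdft1 and from -0.30 to 0.53 for Insig1.

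**Figure D3:**
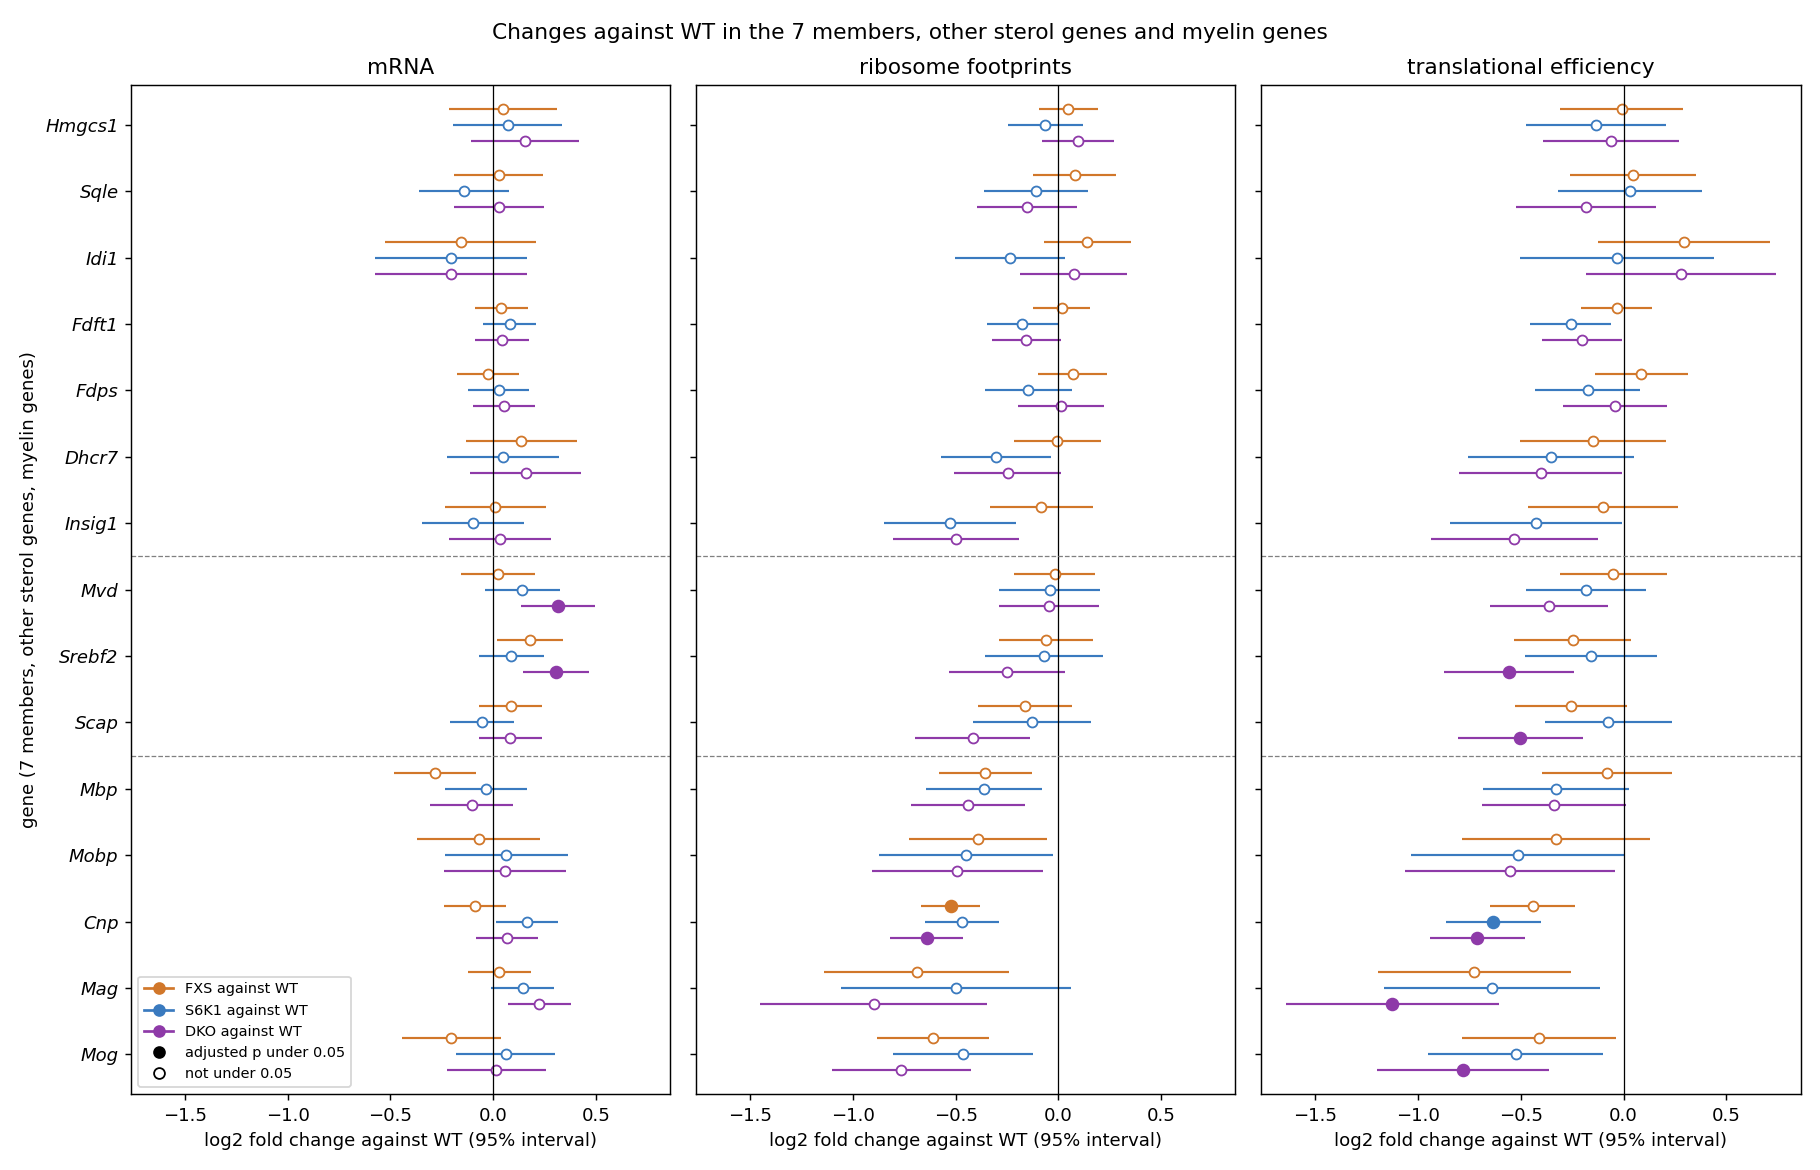
Log2 fold change against WT (horizontal axis, bars are 95% intervals) of mRNA, footprints and translational efficiency in FXS, S6K1 and DKO, for the 7 members (top), other sterol genes (middle) and myelin genes (bottom); filled points have an adjusted p below 0.05. No member is filled, Mvd and Srebf2 are filled in DKO mRNA, and all 5 myelin genes lie below 0 in footprints in each genotype.

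Among the other sterol and lipid genes, lists of 59 genes in all, calls occurred only in DKO against WT and in none of the other 5 comparisons of any measure. There 4 of 59 were called higher in mRNA, 1 lower in footprints and 4 lower in translational efficiency, shares of 6.78%, 1.69% and 6.78% in either direction against 5.23%, 0.366% and 4.85% of all genes. The lists were drawn up with earlier results of these data known, so their direction is not independent evidence.

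Of the 11 uptake and transport genes, 10 had footprint values below WT in DKO, with a median log2 difference of -0.28 against -0.01 over all genes. In FXS, 9 of the 11 were below WT with a median of -0.13, and in S6K1 7 of the 11 with a median of -0.03, and none was called in either.

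Of the 9 sterol sensing genes, Srebf2, which encodes SREBP-2, rose in DKO mRNA. It was 157, 231, 256 and 236 CPM in WT and 193, 296, 316 and 281 CPM in DKO. DKO was higher than WT within each of the 4 batches, by 0.25 to 0.36 on the log2 scale. The fitted difference was 0.30 ± 0.08 (SE), with an adjusted p of 0.0244 by edgeR. Its footprints did not follow: they were 114, 106, 91.5 and 98.0 CPM in WT and 78.1, 80.9 and 80.6 CPM in DKO. All DKO libraries lay below WT, as for 7.22% of all genes, and the log2 difference of -0.25 ± 0.13 was not called. The translational efficiency of Srebf2 fell by 0.56 on the log2 scale, with an adjusted p of 0.0400 by edgeR.

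Scap, the escort of SREBP-2, fell in translational efficiency as well, with a log2 difference of -0.50 ± 0.15 (SE) and an adjusted p of 0.0483 by edgeR. Its footprints were 36.6, 39.9, 25.7 and 31.3 CPM in WT and 23.3, 23.5 and 23.3 CPM in DKO, while its mRNA difference was 0.08. The Scap efficiency call was lost with RLE factors, no filter on low counts, no batch term, limma voom, only 2 genotypes, and without mRNA batch 5, at adjusted p-values from 0.0525 to 0.258. The Srebf2 efficiency call was lost without the batch term and without mRNA batch 5, at adjusted p-values of 0.178 and 0.0589 by edgeR.

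Of the 16 other synthesis enzymes, Mvd rose in DKO mRNA. Mvd encodes the decarboxylase that precedes IDI1 in the pathway. Its mRNA was 27.3, 29.7, 32.1 and 24.2 CPM in WT and 30.0, 36.2, 42.3 and 32.6 CPM in DKO, higher in 4 of 4 batches, with a log2 difference of 0.31 ± 0.09 (SE) and an adjusted p of 0.0388 by edgeR. Leaving out single libraries raised the adjusted p above 0.05 in 7 of 8 cases for Mvd mRNA, 6 of 8 for Srebf2 mRNA and 12 of 15 for the efficiency of each of Srebf2 and Scap, with highest values of 0.147, 0.105, 0.227 and 0.312. The mRNA calls of Mvd and Srebf2 were lost without the batch term as well, at adjusted p-values of 0.420 and 0.638 by edgeR, and that of Mvd also with only 2 genotypes, at 0.0628. Of 12 neuronal markers, 2 were called higher in DKO mRNA, where 3.17% of all genes were, with a list median of 0.15. Their part in the mRNA rises was not tested.

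Myelin genes were called lower in footprints in FXS and DKO, where no member was called. All 23 genes of the myelin and oligodendrocyte list had footprint differences below 0 in FXS, S6K1 and DKO against WT, with medians of -0.57, -0.46 and -0.64. Of the 23, edgeR called 6 in FXS, 0 in S6K1 and 8 in DKO, against 0.165%, 0.00717% and 0.366% of all genes, and the DKO count ranged from 0 to 14 under the alternatives. In S6K1, 16 of the 23 had an unadjusted p below 0.05, where 4.52% of all genes were lower by that measure. The median mRNA differences of the list were -0.12, 0.06 and 0.04. In translational efficiency, 15 of the 23 were called in DKO against WT, where 4.85% of all genes were, and 1 to 16 under the alternatives. The medians of the 7 members in footprints were 0.05 in FXS, -0.18 in S6K1 and -0.15 in DKO.

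Cnp, which encodes a myelin phosphodiesterase, fell in footprints from 905 ± 72.0 CPM in WT (SD, n = 4) to 645 ± 78.7 in FXS (SD, n = 5) and 577 ± 24.4 in DKO (SD, n = 3). In S6K1 it was 685 ± 27.2 CPM (SD, n = 3), with all libraries below WT, as for 6.41% of all genes, and it was not called there. The log2 differences of Cnp were -0.52 in FXS and -0.64 in DKO, with adjusted p-values of 0.00785 and 0.00456 by edgeR. Mbp, Mobp, Mag and Mog, other myelin proteins, had values of -0.36, -0.39, -0.69 and -0.61 in FXS and of -0.44, -0.49, -0.90 and -0.76 in DKO, and these were not called. Mean Cnp mRNA was 347 CPM for WT libraries, against 326 (FXS), 389 (S6K1) and 364 CPM (DKO). Each deficient genotype overlapped WT in Cnp mRNA. For an mRNA level in bulk tissue, fewer cells of a type and less RNA per cell cannot be told apart. The cause of the lower myelin footprints was not tested. The Cnp footprint call was lost without FXS replicate 5 in FXS (adjusted p = 0.0731 by edgeR) and without DKO replicate 2 (0.0845) or 3 (0.0595) in DKO. With only 2 genotypes fitted it was lost in both (0.0506 and 0.0674). Without the batch term it was lost in FXS (0.264) and held in DKO (0.0484).

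Library by library, the summed footprints of the 23 myelin genes were 3719 to 5565 CPM in WT, 2407 to 3723 in FXS, 3629 to 3947 in S6K1 and 2531 to 3680 in DKO. The DKO libraries were all below WT, and FXS and WT overlapped, the highest FXS library at 3723 standing just above the lowest of WT. The summed footprints of the 7 members were 1196 to 1302 CPM in WT, 1184 to 1375 in FXS, 1108 to 1494 in S6K1 and 1226 to 1584 in DKO, with every pair of genotypes overlapping. Hmgcs1, with a mean of 652 CPM in WT, made the largest contribution to that sum, whose WT mean was 1242 CPM. In FXS, where Cnp was called lower, the members' log2 differences in footprints ran from -0.08 (Insig1) to 0.14 (Idi1). The widest 95% interval reached 0.25 to either side of its value. Insig1 was the member whose DKO footprint difference, -0.50, came nearest to the myelin median of -0.64. In FXS, with a myelin median of -0.57, it was -0.08.

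**Figure D4:**
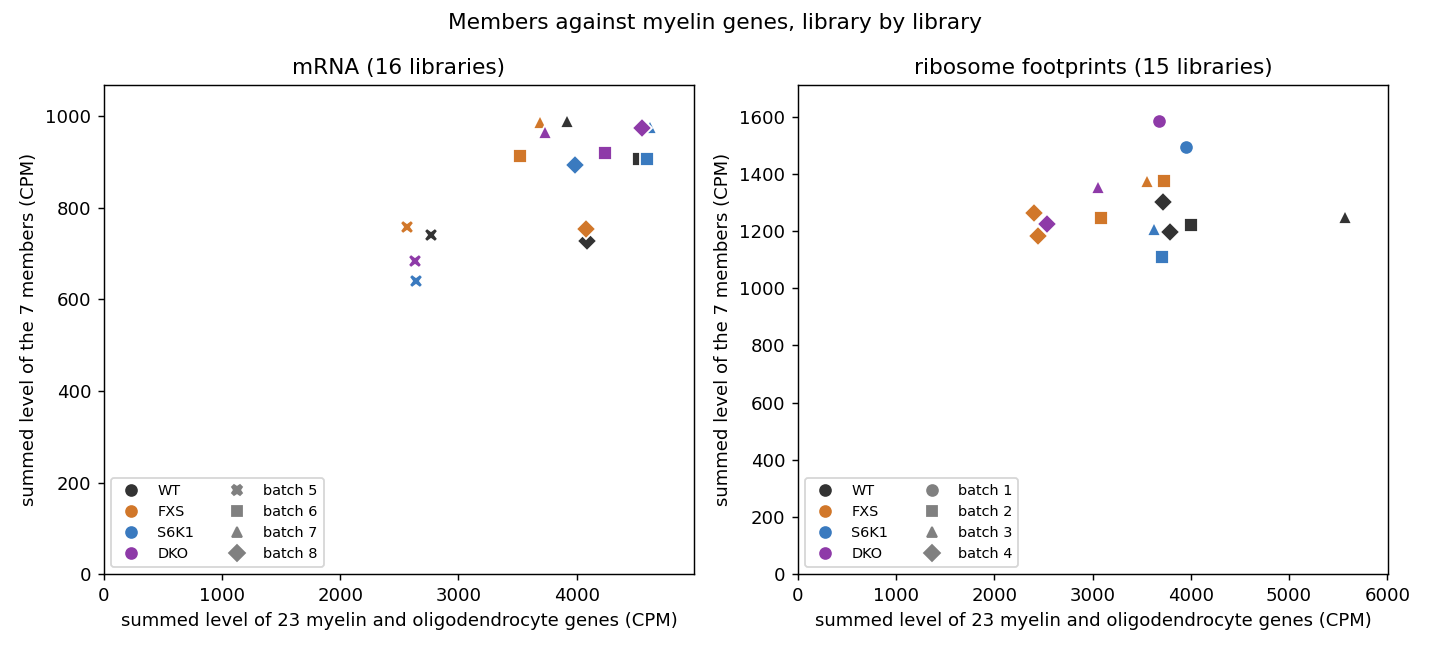
Summed level of the 7 members (vertical axis, CPM) against the summed level of 23 myelin and oligodendrocyte genes (horizontal axis, CPM) in each mRNA library (left) and footprint library (right), with colours for genotypes and symbols for batches. In mRNA the batch 5 libraries stand apart at low myelin sums. Their member sums, 639 to 758 CPM, are low as well, but the WT and FXS libraries of batch 8 lie among them at 727 and 754 CPM. In footprints the FXS and DKO libraries spread to lower myelin sums while their member sums stay within 1184 to 1584 CPM.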

How the data were processed

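Per the submitters' processing notes, cutadapt 2.0, Bowtie2, TopHat2, RSEM and the mm10 build were used, and the authors deposited whole-number read counts per gene for 16 mRNA and 15 footprint libraries. The order of those steps, the counting of multi-mapped reads and the strand setting are not given in the sources used here. The authors' deposited tables of log2 fold changes and p-values for FXS and DKO against WT were read for comparison only. Counts were tested with edgeR 4.0.16 in R 4.3.3 (TMM, filterByExpr, robust quasi-likelihood F-test), with batch and genotype in the model and all genotypes fitted together. Translational efficiency is the footprint contrast minus the mRNA contrast in 1 model over 31 libraries, treated as independent, since the labels do not state whether mRNA and footprints came from the same cortices. P-values were Benjamini-Hochberg adjusted over all genes tested and called below 0.05. Standard errors and 95% intervals follow from the F statistic.

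Batch, given in the labels, is the replicate block. Deviations from genotype means correlated with a median of 0.27 for mRNA and 0.30 for footprint pairs of the same batch, and -0.14 and -0.10 for other pairs. Replicate numbers follow accession order and pair nothing. Variance shares and correlations used log2(CPM + 0.5), which was batch-adjusted with limma 3.58.1 for the correlations only. A variance share is the part lost when batch or genotype is dropped from the model of both, and footprint batches are unbalanced over genotypes. DESeq2 1.42.0 and limma voom served as alternatives. The fits were tested on simulated data with no batch differences and the same spread for all genes, so that run does not cover batch differences such as those seen here.

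The members and all gene lists were chosen with earlier results of these data known. Named genes are the 7 members, Fmr1, Rps6kb1, Srebf2, fixed myelin genes, every sterol or lipid list gene called, and the 5 genes most correlated with the members per assay. Cdc42ep4, Fabp7, Pnpla2, Ecscr, Mcur1, Sept1 and Adck3 are named by that last rule. Some genes that the rule covers are not reported here. Erg28 was found in the tables as 0610007P14Rik.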

Additional observations from a re-analysis of the deposited data

Results flagged for a closer look

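Within-group spread was examined for the 7 members in 42 groups of 4 or 5 libraries, and 2 libraries lay far from the rest of their group by Dixon's test, which chance does in about 1 in 20 groups. Hmgcs1 mRNA in S6K1 replicate 1, a library of batch 5, was 209 CPM, while the next lowest S6K1 library was 328 CPM and the highest 351 CPM. Fdft1 footprints in FXS replicate 1 were 176 CPM, while the next lowest FXS library was 197 CPM and the highest 203 CPM. No interaction of the 2 deficiencies was called among the 21 tested for the members by edgeR.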

How the results depend on the processing

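The counts of members called were recomputed under DESeq2, limma voom, RLE scaling, no filter on low counts, no batch term, only 2 genotypes, no mRNA batch 5, and with each library left out. Of 333 such counts, 331 were 0, as in the main analysis. For translational efficiency in DKO against WT the count was 1 without mRNA batch 5, and it ranged from 0 to 1 when single libraries were left out; the gene was Insig1. With no replicate block, that is without the batch term, the count of members called was 0 in each comparison. Of the 63 member differences from WT, 33 kept their sign under every alternative and 30 did not, all of them uncalled. 

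Without the batch block, the reversed log2 values were, in FXS footprints, -0.011 for Fdft1 and 0.045 for Dhcr7, in S6K1 footprints 0.099 for Hmgcs1, 0.25 for Sqle and 0.20 for Idi1, and in DKO footprints 0.041 for Sqle. In efficiency they were 0.033 for Hmgcs1 and 0.43 for Idi1 in S6K1, and 0.086 for Hmgcs1, 0.0049 for Sqle and 0.0078 for Fdps in DKO. Without mRNA batch 5, Fdft1 in FXS was -0.018 in mRNA and 0.035 in efficiency, and Sqle efficiency in S6K1 was -0.053. With only 2 genotypes, efficiency was -0.0063 for Sqle and 0.13 for Idi1 in S6K1, and 0.029 for Hmgcs1 in DKO. With limma voom, Dhcr7 footprints in FXS were 5.4e-05. The cause was not tested.

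Leaving out single libraries reversed the following, given as lowest and highest log2 value. In FXS mRNA, Hmgcs1 ranged from -0.065 to 0.16, Sqle from -0.070 to 0.11, Fdft1 from -0.0030 to 0.076, Fdps from -0.085 to 0.014 and Insig1 from -0.12 to 0.12. In S6K1 mRNA, Hmgcs1 ranged from -0.053 to 0.16, Fdps from -0.026 to 0.045 and Dhcr7 from -0.042 to 0.17. In DKO mRNA, Sqle ranged from -0.074 to 0.073, Fdps from -0.025 to 0.11 and Insig1 from -0.10 to 0.16. In FXS footprints, Fdft1 ranged from -0.015 to 0.033, Dhcr7 from -0.13 to 0.076 and Insig1 from -0.20 to 0.075. In S6K1 footprints, Hmgcs1 ranged from -0.13 to 0.017 and Sqle from -0.18 to 0.00070. In DKO footprints, Idi1 ranged from -0.044 to 0.18 and Fdps from -0.045 to 0.086. In FXS efficiency, Hmgcs1 ranged from -0.11 to 0.11, Sqle from -0.040 to 0.14, Fdft1 from -0.066 to 0.018 and Insig1 from -0.21 to 0.063. In S6K1 efficiency, Hmgcs1 ranged from -0.24 to 0.0014, Sqle from -0.055 to 0.16 and Idi1 from -0.14 to 0.16. In DKO efficiency, Hmgcs1 ranged from -0.16 to 0.065 and Fdps from -0.10 to 0.035.

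The Insig1 footprint difference in DKO stayed below 0 under every alternative run, with adjusted p-values from 0.0641 to 0.485. The 23 myelin genes gave 0 to 14 footprint calls in DKO under the alternatives, against 8.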

Other observations

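Genes that export cholesterol or make fatty acids gave calls in DKO against WT as well. Abcg4, which encodes a sterol exporter of neurons and astrocytes, rose in mRNA and fell in translational efficiency. Its mRNA was 39.2, 49.9, 43.3 and 48.5 CPM in WT and 45.8, 63.9, 59.8 and 58.5 CPM in DKO, higher in 4 of 4 batches, with a log2 difference of 0.33 ± 0.09 (SE) and an adjusted p of 0.0451 by edgeR. Its efficiency differed by -0.55 ± 0.14, with an adjusted p of 0.0332 by edgeR. Fasn, which encodes fatty acid synthase, rose in mRNA by 0.28 ± 0.07 (SE) on the log2 scale, with an adjusted p of 0.0229 by edgeR and DKO above WT in 4 of 4 batches. Fasn footprints differed by -0.05. Of the 11 efflux, storage and turnover genes and the 12 fatty acid synthesis genes, these were the ones called. Leaving out single libraries raised the adjusted p above 0.05 in 6 of 8 cases for each of these mRNA calls, to at most 0.184 for Abcg4 and 0.103 for Fasn, and in 8 of 15 cases for Abcg4 efficiency, to at most 0.192. Without the batch term all 3 calls were lost, at adjusted p-values of 0.512 for Abcg4 mRNA, 0.121 for Abcg4 efficiency and 0.580 for Fasn mRNA by edgeR, and the Fasn call was also lost without mRNA batch 5, at 0.0700.

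Endothelial markers are given here beside Insig1 because their fitted differences lay on the same side, so the shared side is not independent evidence. All 10 had mRNA differences below 0 in S6K1 and in DKO against WT, with medians of -0.36 and -0.28, and 0 and 1 were called lower by edgeR, with 6 and 4 lower at an unadjusted p below 0.05, as 3.63% and 10.2% of all genes were. In footprints the medians were -0.50 and -0.34, with 0 called in either and 2 in each lower at an unadjusted p below 0.05, as 4.52% and 9.56% of all genes were. Their summed footprints were 24.9 to 54.3 CPM in WT, 45.9 to 68.1 in S6K1 and 24.7 to 68.7 in DKO, so the unadjusted sums overlapped. The means of these sums were 40.3, 55.0 and 50.8 CPM, on the other side of WT from the fitted values. Footprint levels of these markers were low, down to a mean of 0.293 CPM for Ly6c1. Their part in the Insig1 values was not tested.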
